A study of Bos taurus and Bos indicus with 6 samples.

Results

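The Fc receptors for IgG and IgE were followed in circulating white blood cells of cattle under heavy challenge with the tick Rhipicephalus microplus. The family was taken as 7 genes, FCGR1A, FCGR3A, FCGR2B, FCER1A, FCER1G, FCER2 and FCGRT, and every probe set that the platform annotation gives to 1 of these symbols alone was used. This gave 8 probe sets, of 24016 tested on the array, and each of the 7 genes had at least 1. The animals were 3 Brahman (annotated as Bos indicus) and 3 Holstein (Holstein-Friesian, Bos taurus) females, all 6 months old and all under repeated heavy tick challenge, so the challenge is shared by both breeds and uninfested animals were not analysed here. RNA came from the whole white cell pellet left after lysis of red cells in jugular blood, without sorting or culture, and each animal had its own Affymetrix bovine array. In such bulk samples, fewer cells of a type and less RNA per cell cannot be told apart.

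Fc receptors bind the constant region of antibodies and so couple antibody specificity to white blood cells. The activating receptors for IgG (FCGR1A, FCGR3A) and the high-affinity receptor for IgE (FCER1A) signal through FCER1G, a short shared chain whose tyrosine motif (ITAM) recruits the kinase SYK. FCGR2B carries an inhibitory motif (ITIM) that recruits phosphatases and dampens this signal, FCER2 is a lectin-like low-affinity IgE receptor, and FCGRT recycles IgG inside cells. In guinea pigs and mice, basophils and mast cells armed with antibody take part in acquired resistance to ticks.

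Values are log2 expression levels made by the authors with RMA, a method that corrects background, normalises the arrays to each other and gives 1 value for the several short probes that make up a probe set. Array medians lay between 6.54 and 6.61. The white cell label was borne out by T cell CD3E at a mean of 11.19, B cell MS4A1 at 12.75 and neutrophil S100A8 at 13.59. HBB, from red cells, still read 9.73 on its brightest probe set, and 6.95, 5.70 and 3.61 on its others. Holstein 3 stood closer to the Brahman arrays than Holstein 1 and 2 did, with correlations over probe sets of 0.988, 0.989 and 0.987 to Brahman 1, 2 and 3, against 0.985, 0.983 and 0.983 for Holstein 1. Differences are Brahman minus Holstein, tested with limma over all probe sets with Benjamini-Hochberg adjustment, and called means an adjusted p under 0.05.

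Of the 8 Fc receptor probe sets, 4 read higher and 4 lower in Brahman, and none was called by limma, against 0.137% of all tested probe sets. At an unadjusted p under 0.05 there were 2 of 8, against 13.6% of all tested probe sets. They were FCGR3A, lower in Brahman (background in that direction 6.47%), and the brighter FCER1A probe set, higher in Brahman (background 7.12%). The breeds did not overlap in 1 of 8, the brighter FCER1A probe set, against 20.0% of all tested probe sets. The median difference of the 8 was -0.05, beside 0.02 over all tested probe sets, and the median size of the difference was 0.27, beside 0.12. This background was not matched for level, and all 8 had a mean above the lower quartile of the array. Over the brightest probe set of each gene the median size was 0.13. The low-affinity IgG receptor FCGR3A had the largest difference among the 8, and 1.66% of all tested probe sets differed by as much or more.

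**Figure D1:**
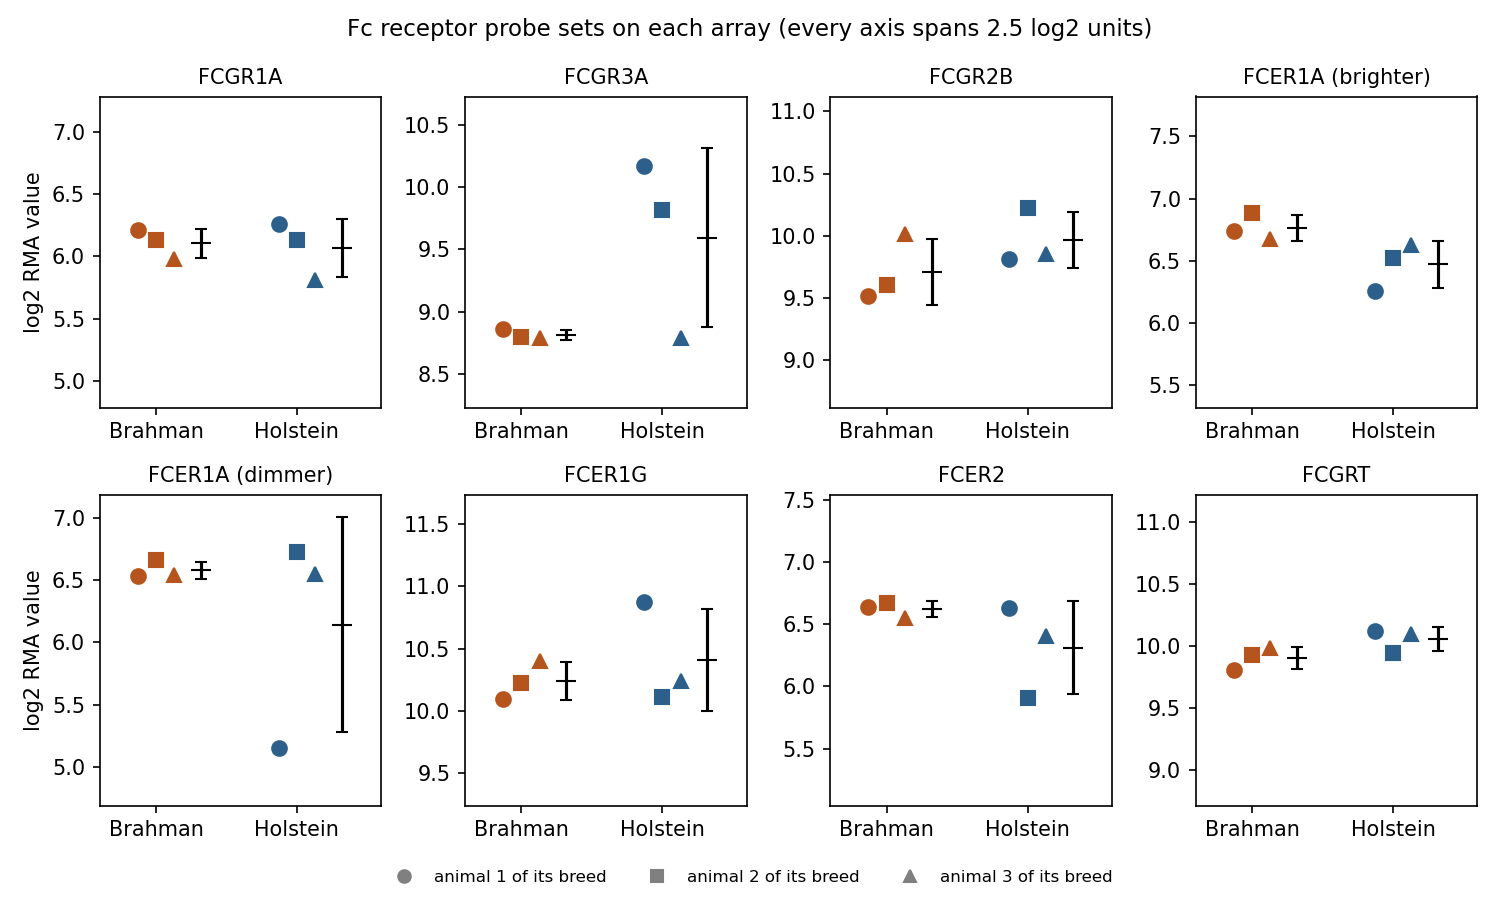
log2 RMA value of each Fc receptor probe set on the 3 Brahman (left) and 3 Holstein (right) arrays, with the mean and SD of each breed as a bar beside the points. Every axis spans the same number of log2 units at its own height. FCGR3A is tight in Brahman and splits in Holstein, where Holstein 3 reads 8.79, within the Brahman values.

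FCGR3A (CD16) encodes a low-affinity activating receptor for IgG, known in humans from natural killer (NK) cells and a subset of monocytes, where it triggers killing of antibody-coated targets. Its probe set (Entrez gene 281766) read 8.86, 8.79 and 8.79 in Brahman 1, 2 and 3, against 10.17, 9.82 and 8.79 in Holstein 1, 2 and 3. Holstein 1 and 2 were above every Brahman array, and Holstein 3 lay among them, so the breeds overlapped. The means were 8.81 ± 0.04 in Brahman and 9.59 ± 0.72 in Holstein (SD, n = 3 each), a difference of -0.78 (SE 0.32, 95% interval -1.52 to -0.04), or 1.72-fold higher in Holstein. Limma gave an unadjusted p of 0.0408 and an adjusted p of 0.346, so FCGR3A was not called. The value turned on single Holstein arrays. Without Holstein 3 the difference was -1.18 (SE 0.13) with a limma adjusted p of 0.0464, 1 of the 55 probe sets (0.229%) called in that fit, and without Holstein 1 it was -0.49 (adjusted p = 0.495). Over all 16 alternatives FCGR3A stayed lower in Brahman, with adjusted p-values from 0.0464 to 0.666.

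FCGR1A (CD64) encodes the high-affinity IgG receptor of monocytes and macrophages. It read 6.21, 6.13 and 5.98 in Brahman, against 6.26, 6.13 and 5.81 in Holstein (Entrez gene 282227). The breeds lay on top of each other, with the highest and the lowest array both Holstein. The difference was 0.04 (SE 0.14, 95% interval -0.28 to 0.36, limma adjusted p = 0.932). The sign of FCGR1A turned with cyclic loess normalisation, with the mean level of the hybridisation controls of each array in the fit (the spike-in covariate), and without Brahman 1 or Holstein 3.

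FCGR2B (CD32), the inhibitory IgG receptor of B cells and myeloid cells, read 9.52, 9.61 and 10.01 in Brahman, against 9.82, 10.22 and 9.86 in Holstein (Entrez gene 282229). Brahman 1 and 2 were the lowest arrays, while Brahman 3 exceeded Holstein 1 and 3. The means were 9.71 ± 0.26 in Brahman and 9.97 ± 0.22 in Holstein (SD, n = 3 each), a difference of -0.26 (SE 0.17, 95% interval -0.65 to 0.14, limma adjusted p = 0.549). The difference was -0.41 without Brahman 3 (adjusted p = 0.485), -0.16 without Brahman 1 and -0.13 without Holstein 2, and it turned to 0.26 (adjusted p = 0.718) with the spike-in covariate. In the RefSeq gene table of ARS-UCD2.0, FCGR2B, FCGR3A, HSPA6 and FCGR2A follow one another as protein-coding neighbours. No probe set carried FCGR2A as its single symbol in the annotation used here. How far related Fc receptor transcripts bind these probes was not tested.

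FCER1A encodes the IgE-binding chain of the high-affinity receptor, which arms basophils and mast cells. Its brighter probe set (Entrez gene 506783) read 6.74, 6.88 and 6.67 in Brahman, against 6.26, 6.53 and 6.63 in Holstein. All Brahman arrays were above all Holstein arrays, by a gap of 0.05 between Brahman 3 and Holstein 3. The means were 6.76 ± 0.11 in Brahman and 6.47 ± 0.19 in Holstein (SD, n = 3 each), a difference of 0.29 (SE 0.12, 95% interval 0.01 to 0.58), or 1.23-fold. Limma gave an unadjusted p of 0.0451 and an adjusted p of 0.357, so it was not called, and its adjusted p ran from 0.240 to 0.597 over the alternatives. Its unadjusted p was under 0.05 in 3 of the 16 alternatives. The difference was 0.19 without Holstein 1 (unadjusted p = 0.127) and 0.45 with the spike-in covariate (unadjusted p = 0.0847).

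The dimmer FCER1A probe set read 6.54, 6.66 and 6.54 in Brahman, against 5.15, 6.72 and 6.55 in Holstein. Holstein 1 alone stood low, and Holstein 2 and 3 overlapped Brahman. The difference was 0.44 (SE 0.38, 95% interval -0.44 to 1.32, limma adjusted p = 0.657), and it was -0.06 without Holstein 1 and 0.73 without Holstein 2. Both FCER1A probe sets were lowest on Holstein 1, so they share the low animal but not the separation of breeds. With the spike-in covariate the dimmer one differed by 1.64 (unadjusted p = 0.0138, adjusted p = 0.418).

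FCER1G, the signalling chain shared by FCGR1A, FCGR3A and FCER1A, read 10.09, 10.23 and 10.40 in Brahman, against 10.88, 10.11 and 10.24 in Holstein (Entrez gene 282226). Holstein 1 was the highest array and the other 5 lay between 10.09 and 10.40, with both breeds mixed. The means were 10.24 ± 0.16 in Brahman and 10.41 ± 0.41 in Holstein (SD, n = 3 each), a difference of -0.17 (SE 0.20, 95% interval -0.64 to 0.30, limma adjusted p = 0.764). Without Holstein 1 the sign turned, to 0.06, and without Holstein 2 the difference was -0.32. Holstein 1 therefore combined the highest FCER1G and FCGR3A with the lowest FCER1A of the 6 arrays.

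FCER2 (CD23), the low-affinity IgE receptor of B cells, read 6.64, 6.67 and 6.55 in Brahman, against 6.63, 5.91 and 6.40 in Holstein (Entrez gene 407106). Holstein 2 was the lowest array, while Holstein 1 read within the Brahman values. The means were 6.62 ± 0.06 in Brahman and 6.31 ± 0.37 in Holstein (SD, n = 3 each), a difference of 0.31 (SE 0.18, 95% interval -0.11 to 0.73, limma adjusted p = 0.491). It was 0.47 without Holstein 1 (unadjusted p = 0.0244, adjusted p = 0.345), 0.11 without Holstein 2, and -0.34 with the spike-in covariate (adjusted p = 0.528).

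FCGRT, the heavy chain of the neonatal Fc receptor, protects IgG and albumin from breakdown and pairs with beta-2-microglobulin (B2M). It read 9.81, 9.93 and 9.98 in Brahman, against 10.12, 9.95 and 10.10 in Holstein (Entrez gene 338062). The values nearly separated, with only Brahman 3 reading above Holstein 2. The difference was -0.15 (SE 0.10, 95% interval -0.37 to 0.08, limma adjusted p = 0.543), and it stayed between -0.26 and -0.10 over all alternatives. B2M, at the bright end of the array, differed by -0.05 (SE 0.08, limma adjusted p = 0.844) on its brightest probe set, and by 0.03 on each of its others.

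**Figure D2:**
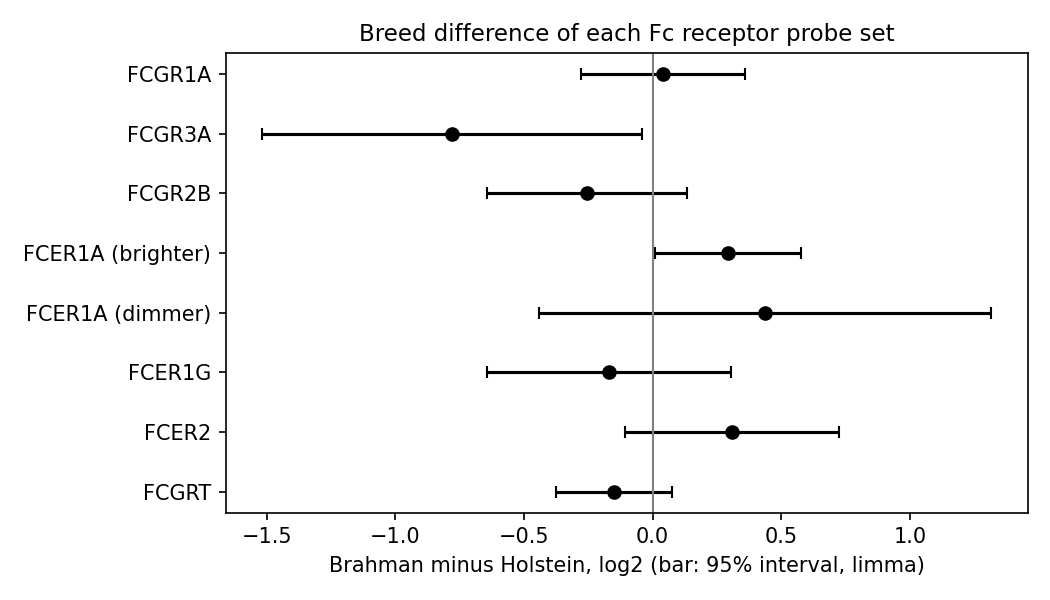
Brahman minus Holstein difference (log2) of each Fc receptor probe set with its 95% interval from limma. FCGR3A (-0.78) and the brighter FCER1A probe set (0.29) are the ones whose interval leaves out 0, and neither was called after adjustment over all tested probe sets.

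The animals within a breed differed unequally. The SD was larger among Holstein than among Brahman animals in 7 of the 8 probe sets, FCGR2B being the exception. Over all tested probe sets the Holstein SD was the larger in 63.5%, with a median SD of 0.11 in Brahman and 0.15 in Holstein. For FCGR3A the SD was 0.04 in Brahman against 0.72 in Holstein, a Holstein SD that 0.845% of all tested probe sets reached. For the dimmer FCER1A probe set it was 0.07 against 0.86, a Holstein SD that 0.383% reached. The Holstein animal farthest from the other two was Holstein 3 for FCGR3A, Holstein 1 for both FCER1A probe sets and FCER1G, and Holstein 2 for FCER2.

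**Figure D3:**
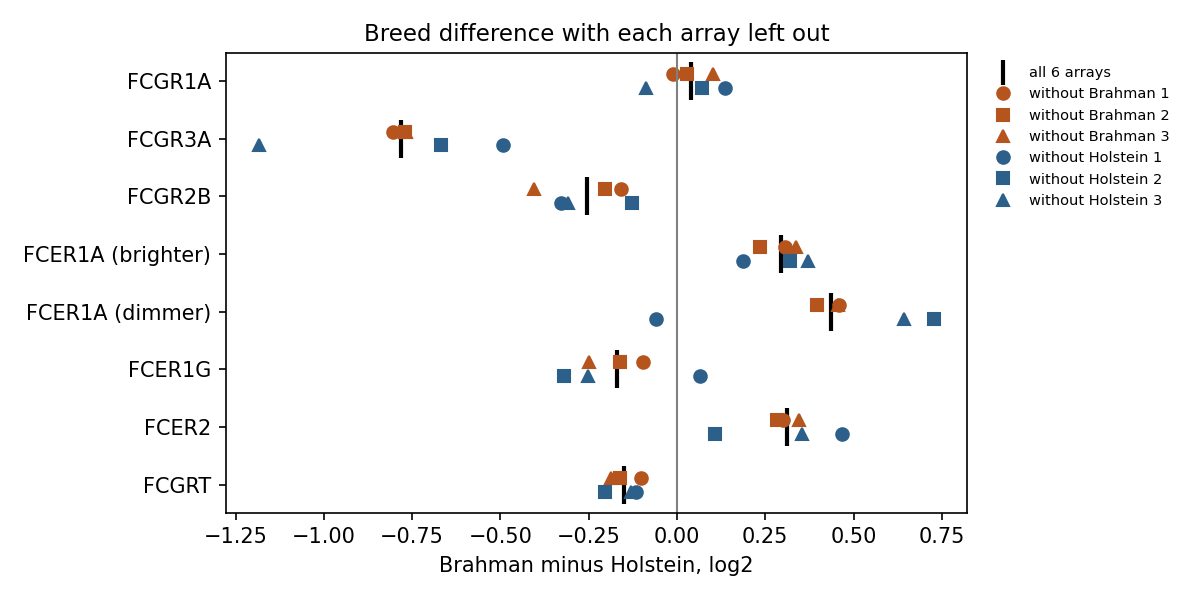
Brahman minus Holstein difference (log2) of each Fc receptor probe set with all 6 arrays (bar) and with each array left out in turn (points). FCGR3A moves between -1.18 without Holstein 3 and -0.49 without Holstein 1, and FCER1G, FCGR1A and the dimmer FCER1A probe set change sign.

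The genes whose profile over the 6 arrays was most like each receptor were ranked by Pearson's r among probe sets with 1 symbol and a mean level above the lower quartile of the array (5.08). With so few arrays and so many candidates, high values arise for every receptor, and they are given as a description. FCER2 was most like the dimmer probe sets of CR2 (r = 0.998) and GRK6 (r = 0.994). CR2 is the complement receptor CD21 of B cells, and GRK6 a kinase of G protein-coupled receptors. The matched CR2 probe set had a mean level of 5.25, near the lower quartile of the array. The brighter CR2 probe set was not among the most alike. FCGR3A was most like ALAS2 (r = 0.994), the haem synthesis enzyme of red cell precursors, and EIF3CL (r = 0.992). ALAS2 read 5.68, 5.55 and 5.64 in Brahman, against 6.53, 6.40 and 5.63 in Holstein, again with Holstein 3 beside the Brahman animals.

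FCER1G was most like the complement component C3 (r = 0.987) and the sialyltransferase gene ST6GALNAC4 (r = 0.985), and C3 too was highest on Holstein 1, at 10.52. The brighter FCER1A probe set was most like ZZZ3 (r = 0.996, its dimmer probe set) and PDE5A (r = 0.993). FCGR1A was most like TNNT3 (r = 0.993) and NDUFA4L2 (r = 0.987), and FCGR2B like GTF2H4 (r = 0.987) and COQ3 (r = 0.986). FCGRT was most like NRN1 (r = 0.991) and SUMO3 (r = 0.985). None of these was called between breeds, and the smallest adjusted p among them was 0.332, for ZZZ3.

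The genes around the receptors are given by the brightest probe set of each gene, and 15.8% of such probe sets over all genes had an unadjusted p under 0.05. Of 8 measured genes for other immunoglobulin-binding receptors and partners, 3 reached it, all higher in Brahman, and none was called (list median 0.11). LGALS3, a galectin that also binds IgE, averaged 11.37 ± 0.06 in Brahman and 10.91 ± 0.01 in Holstein (SD, n = 3 each), a difference of 0.46 (SE 0.08, limma adjusted p = 0.111) with no overlap. CR2 differed by 0.35 (SE 0.10, adjusted p = 0.244) on its brighter probe set, and CD247, the T and NK cell signalling chain that also pairs with FCGR3A in human NK cells, by 0.26 (SE 0.11, adjusted p = 0.357). The IgA receptor FCAR differed by 0.42 and TYROBP, another ITAM adaptor, by -0.41, without reaching an unadjusted p under 0.05.

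In the list of ITAM signalling genes, 5 of 15 measured reached an unadjusted p under 0.05, 4 higher and 1 lower in Brahman. None was called (list median 0.00), and of all 15, 6 read higher and 9 lower. The kinase LYN, not among the 5 by its brightest probe set (-0.17), differed by -0.67 and -0.29 on its others. For the -0.67, limma gave an unadjusted p of 0.00641 and an adjusted p of 0.209. The kinase PRKCD, which acts in myeloid and B cell signalling, differed by -0.58 (SE 0.09, limma adjusted p = 0.0834). The adaptor LCP2 (SLP-76) differed by 0.55 (SE 0.09, adjusted p = 0.0956) and the phospholipase PLCG1 by 0.72 (SE 0.16, adjusted p = 0.151). LCP2 and PLCG1 are also part of T cell receptor signalling. A second PRKCD probe set differed by 0.12 at a mean level below the lower quartile of the array, where signal cannot be told from background. The kinase SYK itself differed by -0.26 (SE 0.18, adjusted p = 0.566), with Brahman 1 lowest and Holstein 3 highest. The count of this list was 4 to 6 with each array left out and 3 with the spike-in covariate.

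Of 7 measured genes for ITIM signalling, 1 reached an unadjusted p under 0.05, the phosphatase gene PTPN6 (SHP-1), at 11.11 ± 0.02 in Brahman and 11.36 ± 0.12 in Holstein (SD, n = 3 each). Its difference was -0.25 (SE 0.09, limma adjusted p = 0.328). SIRPA, an inhibitory receptor of myeloid cells, differed by -0.39 (adjusted p = 0.598) on its brightest probe set, and by -0.17 and 0.08 on its others. DOK1 differed by -0.06 (adjusted p = 0.833). INPP5D (SHIP-1), the phosphatase recruited by FCGR2B, differed by 0.03 (SE 0.09, 95% interval -0.19 to 0.24). The list count was 0 with cyclic loess and 2 with the spike-in covariate. It was 0 without Holstein 1, Brahman 1 or Brahman 2, and 2 without Holstein 3.

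For the IgE and type 2 axis, 2 of 11 measured genes reached an unadjusted p under 0.05 (list median -0.01, none called). CD40LG, the T cell ligand that drives antibody class switching, differed by 0.74 (SE 0.14, limma adjusted p = 0.119), and the interleukin 13 receptor chain IL13RA1 by -0.50 (SE 0.15, adjusted p = 0.246). A second IL13RA1 probe set differed by 0.04. CD40 differed by -0.31 (adjusted p = 0.374), while IL4 at a mean level of 4.69 and IL5 at 3.77 lay below the lower quartile of the array. Among 5 measured immunoglobulin and plasma cell genes none reached an unadjusted p under 0.05 or was called (list median 0.03). PRDM1 differed by -0.09, IGHM by 0.08 and MZB1 by 0.13. No probe set carried IGHE or IGHG1 as its single symbol, so the antibody classes bound by these receptors were not analysed here.

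**Figure D4:**
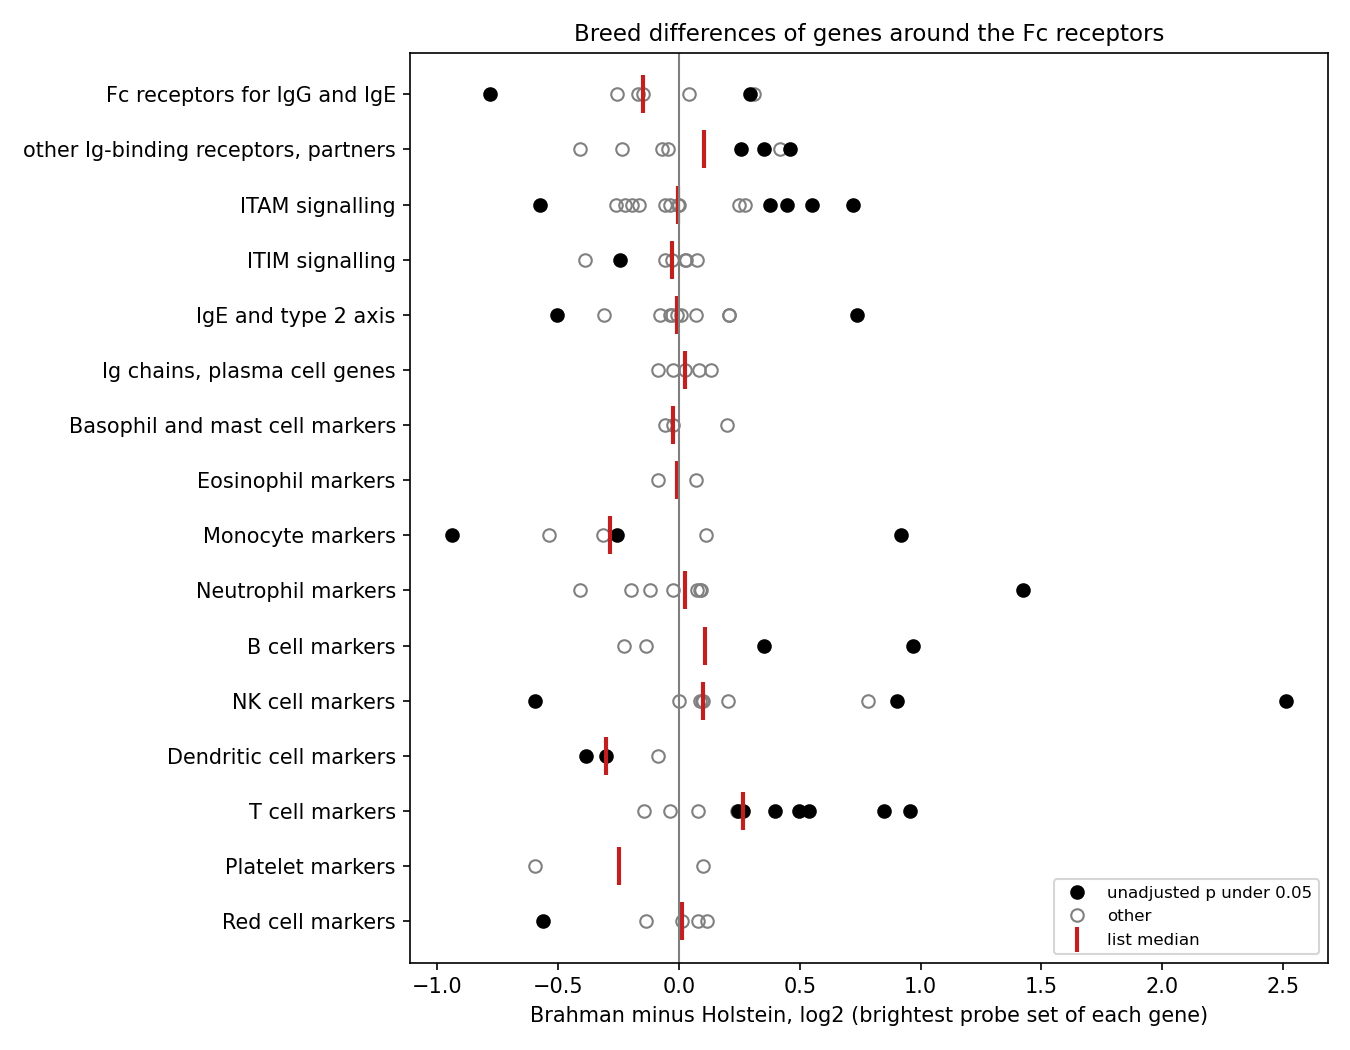
Brahman minus Holstein difference (log2) of the genes of each list, by the brightest probe set of each gene. Filled points have an unadjusted p under 0.05 in limma, open points do not, and the bar is the list median. The Fc receptors lie on both sides of 0, as do the ITAM signalling genes, and most T cell markers lie above 0.

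Markers of the cells that carry these receptors were measured on the same arrays, and their part in the receptor values was not tested. Basophil and mast cell markers, the usual carriers of FCER1A, were thinly covered: 3 of 11 had a probe set, of which HDC (3.94) and ENPP3 (3.62) lay below the lower quartile of the array and KIT differed by 0.20 (limma adjusted p = 0.582). A dimmer KIT probe set, at a mean level of 5.72, differed by 0.62 (unadjusted p = 0.0310, adjusted p = 0.319) without overlap, and the remaining KIT probe sets by 0.22 and 0.03. The list mean ran from 4.72 to 4.97 in Brahman and from 4.67 to 4.90 in Holstein. Of 2 measured eosinophil markers, ALOX15 differed by -0.09 and CCR3 by 0.07, and both were highest on Holstein 2, the animal with the lowest FCER2.

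Beside FCGR3A stand the NK and monocyte markers. NK markers averaged 7.40 to 7.94 in Brahman and 7.16 to 7.25 in Holstein, but the list median was 0.10, with 3 of 9 at an unadjusted p under 0.05: GZMB (2.51, called at a limma adjusted p of 0.0264), KLRD1 (0.90) and PRF1 (-0.60). The NK receptor gene NCR1 differed by 0.09, GNLY by 0.09 and NKG7 by 0.00, so the difference in the list mean lay mainly in GZMB, KLRD1 and KLRK1 (0.78), while NCAM1 lay below the lower quartile of the array. Monocyte markers averaged 8.60 to 8.85 in Brahman and 8.74 to 9.09 in Holstein, with 3 of 6 at an unadjusted p under 0.05, a list median of -0.28 and members in both directions: VCAN (0.92), CD14 (-0.94) and CTSS (-0.25). None of the monocyte markers was called. CD14 read 8.28, 8.46 and 8.07 in Brahman, against 9.62, 8.89 and 9.11 in Holstein, with Holstein 3 above every Brahman array. On the monocyte list as a whole, however, Holstein 3 averaged 8.74, inside the Brahman range as for FCGR3A. CSF1R, CD68 and CTSS read 9.53, 9.49 and 12.23 on Holstein 3, the lowest Holstein array for each, CSF1R only narrowly (9.57 on Holstein 2). Among Holstein arrays, CD14 was instead lowest on Holstein 2, and VCAN on Holstein 1 (7.55, against 7.83 on Holstein 3). The brightest probe sets of TYROBP (11.49) and SIRPA (10.45), genes outside the monocyte list, were also lowest among Holstein on Holstein 3. Others outside that list went differently. SYK was highest on Holstein 3 (10.02), while FCER1G (10.11) and S100A12 (13.15) were lowest among Holstein on Holstein 2. Among neutrophil markers, 1 of 8 reached an unadjusted p under 0.05, ALPL (1.42, adjusted p = 0.0834). That count was 2 without Brahman 2. S100A12 differed by -0.41, and CAMP, below the lower quartile of the array, by -0.12.

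Beside FCER2 and FCGR2B stand the B cell markers, which averaged 10.19 to 10.36 in Brahman and 9.90 to 10.12 in Holstein. Of 4 measured, BLK (0.97) and CR2 (0.35) reached an unadjusted p under 0.05, and CD79A (-0.23) and MS4A1 (-0.14) read the other way. The difference in the list mean thus lay mainly in BLK. None of the 4 was called (list median 0.11), and with the spike-in covariate 0 of the 4 reached an unadjusted p under 0.05. T cell markers averaged 9.61 to 9.84 in Brahman and 9.31 to 9.51 in Holstein, with 7 of 11 higher at an unadjusted p under 0.05, led by LEF1 (0.96), CD3E (0.54) and TCF7 (0.85), and none called (list median 0.26). That T cell count was 4 without Brahman 1 or Holstein 3 and 2 with the spike-in covariate. CD2 counts among the 7 by its brightest probe set (0.40), but another of its probe sets differed by -0.72 (limma adjusted p = 0.0645) without overlap, so the array gives CD2 no single direction.

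Dendritic cell markers averaged 7.83 to 8.05 in Brahman and 8.06 to 8.27 in Holstein. IRF8 (-0.30) and TCF4 (-0.38) had an unadjusted p under 0.05, and CD1B, below the lower quartile of the array, differed by -0.09. Of 3 measured, 2 reached that p, and 1 did without Holstein 2, Holstein 3 or any Brahman array, and 0 with the spike-in covariate. The platelet gene PF4 differed by -0.60 (adjusted p = 0.369) and ITGA2B, below the lower quartile of the array, by 0.10. Of 5 red cell genes, 1 reached an unadjusted p under 0.05, ALAS2 (-0.56, adjusted p = 0.341). That count was 0 without Holstein 1, Holstein 2 or any Brahman array. HBA differed by -0.14 and AHSP, below the lower quartile of the array, by 0.08. The spike-in controls added at hybridisation, which carry no cattle RNA, averaged 9.72 ± 0.08 in Brahman and 10.14 ± 0.22 in Holstein (SD, n = 3 each) without overlap, and so moved with breed as well. The actin 3′ minus 5′ difference, a sign of RNA integrity and labelling, also separated the breeds, narrowly, at 1.70, 1.64 and 1.72 in Brahman, against 1.73, 1.98 and 1.88 in Holstein. Because the spike-in level separated the breeds, the fit with the spike-in covariate cannot cleanly tell that level from breed. The part of either control measure in the receptor differences was not tested.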

How the data were processed

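RNA of 6 animals was hybridised to 1 array each. The deposited table holds log2 values, for which the authors used RMA per the submitters' processing notes (version not given in the sources used here). Detection calls were not used here, so background was judged from the level alone, and 3 arrays per breed limit the precision. Control probe sets (112) were left out. Genes were named from the platform annotation, in which 13292 of 24016 probe sets have 1 symbol, 86 several and 10638 none.

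Brahman was compared with Holstein with limma 3.58.1 in R 4.3.3 (lmFit and eBayes, breed as the only term, two-sided), with Benjamini-Hochberg adjustment over all 24016 probe sets. SE and 95% intervals are moderated. The step was tested on simulated data. The members and the gene lists were chosen with earlier results of these data known. The text names every member probe set and up to 3 genes of each list by smallest p. It also names the 2 genes most alike to each member by Pearson's r. FCAR, TYROBP, B2M, SYK, LYN, INPP5D, IL4, IL5, NCR1 and NCAM1 were added after their values were seen. So were GNLY, NKG7, KLRK1, CSF1R, CD68, CD2, MS4A1, S100A8 and HBB. Alternatives were median scaling, cyclic loess, 2 filters on dim probe sets, trend and robust priors, array weights, a replicate block, 1 probe set per gene, the spike-in level as a covariate, and each array left out. Same-numbered animals did not deviate together (correlations 0.11, -0.04 and -0.07), so the numbers were not taken as pairs.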

Additional observations from a re-analysis of the deposited data

How the results depend on the processing

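With 3 arrays per breed and no detection calls, the small differences of the dimmer receptors cannot be set against background. No Fc receptor probe set was called in 15 of the 16 alternatives, and 1 (FCGR3A) was called without Holstein 3. The count of Fc receptor probe sets at an unadjusted p under 0.05, 2 with all arrays, was 1 with median scaling, cyclic loess, either filter on dim probe sets, the trend prior, the replicate block or the spike-in covariate, 0 with array weights, and 0 to 2 with each array left out. With the stricter filter, 5 of the 8 probe sets were tested. The 33 calls over all probe sets became 10 with the replicate block, 15 with 1 probe set per gene, 0 with the spike-in covariate (2400 at an unadjusted p under 0.05 in limma) and 5 to 55 with each array left out. In the replicate block, FCGR3A differed by -0.78 with an adjusted p of 0.300, and no Fc receptor was called. Signs turned for FCGR1A (-0.0134 with cyclic loess, -0.0759 with the spike-in covariate, -0.0886 to 0.137 with each array left out), FCER2 and FCGR2B (-0.34 and 0.26 with the spike-in covariate), FCER1G (-0.319 to 0.0646 with each array left out) and the dimmer FCER1A probe set (-0.0594 to 0.727 with each array left out). The causes were not tested.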
